A study of Mus musculus with 22 samples.

Results

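Of the 8777 mouse promoters that carried a listed H3K4me3 peak in every one of 10 H3K4me3 libraries, 310 (3.53%) overlapped no peak in any of 10 H3K27ac libraries. These 310 promoters were chosen by the peak lists themselves: the 10 H3K4me3 lists were merged where peaks touched, and a region was kept when all 10 lists held a peak in it, when it contained the transcription start site (TSS) of a protein-coding gene, and when no H3K27ac list held a peak overlapping it. The merge gave 16244 regions, of which 11506 had a peak in all 10 lists. Of the other constant promoters, 7618 had H3K27ac in all 10 lists and 849 in 1 to 9 lists. The presence and length of H3K4me3 and H3K27ac peaks at the 310 promoters, set beside other promoters, are therefore a description with no test. The change of H3K4me3 length between times, on which the rule asked only for a peak in every list, was tested.

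The libraries came from G1E-ER4 (G1ER) cells, a mouse erythroid progenitor line that lacks Gata1 and carries a GATA1-estrogen receptor fusion, which β-estradiol switches on and which starts terminal erythroid maturation. Every group shared the Gata1 deletion, the transgene and a medium with SCF and EPO, and the groups differed in β-estradiol treatment, which lasted 0 h (untreated), 2, 6, 12 or 24 h. H3K4me3 and H3K27ac were each profiled in 2 replicates per time point, and CTCF in 1 library at 0 h and 1 at 24 h. All libraries come from this 1 cell line, the study calls its ChIP-seq replicates independent experiments, and the labels do not say whether they were separate cultures. The p-values measure only the spread between these libraries.

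The H3K4me3 lists held 12925 to 14452 peaks, the H3K27ac lists 17247 to 18333, and the CTCF lists 33193 at 0 h and 41473 at 24 h. The files give a peak's position and a score and no read counts, so the depth behind each list is unknown. As a check of the cell type, the TSS of 7 of 14 erythroid marker genes lay in an H3K4me3 peak in all 10 lists, and that of 1, Tal1, in none. Of all 21842 coding genes, 9697 lay in promoters with H3K4me3 in all 10 lists. The share of the erythroid markers is close to this, so their count says little about the cell type. The TSS of all 12 markers of other cell types (T, B, natural killer, myeloid, liver, heart, nerve, epithelial, endothelial and connective tissue cells) lay in no H3K4me3 peak of any list.

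H3K4me3 is placed on nucleosomes around the TSS by the SET1 and MLL complexes and is found at most CpG-rich promoters, whether the gene is transcribed strongly or hardly at all. H3K27ac is placed by p300 and CBP and marks active promoters and enhancers, and the same lysine can instead be methylated by Polycomb, which keeps many developmental genes silent. Wide H3K4me3 domains are known at genes that define a cell type, and short ones at weakly used or poised promoters.

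Sequences of 5 of the promoters are shown because they span the lengths and the CpG contents found among them. Each run is the 250 bases before the most upstream annotated TSS of the gene in the region, read 5′ to 3′ on the gene's strand from GRCm38 (mm10), and overlaps no annotated exon; capitals mark CpG dinucleotides. The 2 with long H3K4me3 are Zfp36l1 (chr12:80113014-80113263, minus strand), an RNA-binding protein that destabilizes AU-rich mRNAs, and Lyl1 (chr8:84701207-84701456, plus strand), a basic helix-loop-helix factor of blood progenitors. The 3 with short H3K4me3 are Lhx2 (chr2:38339031-38339280, plus strand), a LIM homeobox factor of forebrain and eye, Ogdhl (chr14:32321769-32322018, plus strand), a relative of 2-oxoglutarate dehydrogenase, and Ifit2 (chr19:34550444-34550693, plus strand), an interferon-induced protein.
Zfp36l1: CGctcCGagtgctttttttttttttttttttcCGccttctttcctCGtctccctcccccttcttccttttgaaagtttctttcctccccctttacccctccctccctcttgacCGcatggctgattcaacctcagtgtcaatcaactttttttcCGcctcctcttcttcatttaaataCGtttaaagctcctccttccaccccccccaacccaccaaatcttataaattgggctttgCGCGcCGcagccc
Lyl1: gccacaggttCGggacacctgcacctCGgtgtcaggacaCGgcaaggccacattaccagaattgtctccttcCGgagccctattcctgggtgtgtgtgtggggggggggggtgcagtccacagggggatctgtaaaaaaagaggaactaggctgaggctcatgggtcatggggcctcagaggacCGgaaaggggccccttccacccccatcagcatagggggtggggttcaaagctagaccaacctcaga
Lhx2: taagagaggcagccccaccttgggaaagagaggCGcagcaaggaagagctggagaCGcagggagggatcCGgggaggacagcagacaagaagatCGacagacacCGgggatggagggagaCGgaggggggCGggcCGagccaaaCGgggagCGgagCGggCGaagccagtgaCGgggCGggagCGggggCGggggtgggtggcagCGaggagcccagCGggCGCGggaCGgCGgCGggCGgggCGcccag
Ogdhl: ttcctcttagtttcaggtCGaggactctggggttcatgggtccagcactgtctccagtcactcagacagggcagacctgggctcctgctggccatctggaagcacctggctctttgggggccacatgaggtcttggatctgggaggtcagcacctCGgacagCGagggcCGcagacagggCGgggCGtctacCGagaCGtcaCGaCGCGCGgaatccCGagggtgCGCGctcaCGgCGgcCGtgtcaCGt
Ifit2: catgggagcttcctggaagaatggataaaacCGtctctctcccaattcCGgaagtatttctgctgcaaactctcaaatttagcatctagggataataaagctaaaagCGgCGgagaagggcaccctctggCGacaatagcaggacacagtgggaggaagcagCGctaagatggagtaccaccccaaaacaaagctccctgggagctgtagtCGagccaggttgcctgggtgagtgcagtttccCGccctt
These runs hold 10, 5, 25, 19 and 8 CpG in the order printed. The ratio of observed to expected CpG (the CpG count times the length, over the product of the C and G counts) was 1.01 for Zfp36l1 and 0.226 for Lyl1 among the long ones, and 0.895 for Lhx2 and 0.474 for Ifit2 among the short ones. High and low CpG contents thus occurred at long and at short H3K4me3.

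Most promoters without listed H3K27ac had either short or long H3K4me3. The level used here is the covered length, the number of bases of a region that lie under listed peaks of a library, averaged over the 10 lists. Of the 310, 133 were short (under 2 kb), 128 were long (4 kb or more) and 49 lay between, whereas 5306 of the 7618 promoters with H3K27ac in all 10 lists lay between 2 and 4 kb. The median covered length was 1137.5 bp for the short and 5696 bp for the long promoters, and 2584 bp for the promoters with H3K27ac in all 10 lists. In every single list the short class had a median between 1044 and 1255 bp and the long class between 5311 and 5948 bp. The classes were cut on these same lengths, so that their order in each list is given by the cut. There were 36 promoters within 500 bp of the 2 kb limit and 38 within 500 bp of the 4 kb limit.

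**Figure D1:**
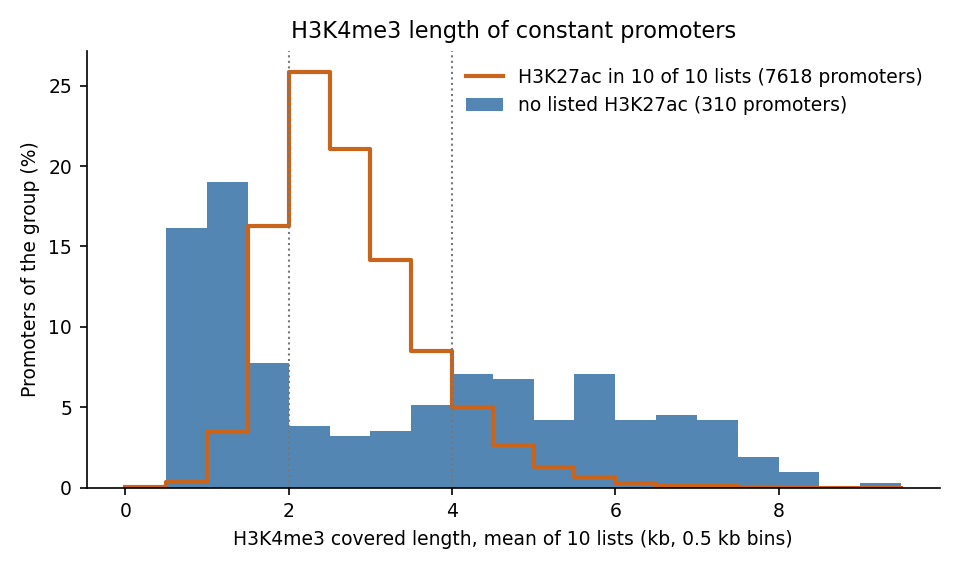
Share of promoters (vertical axis, percent of the group) by H3K4me3 covered length (horizontal axis, kb, mean of 10 lists) for the 310 promoters with no listed H3K27ac (bars) and the 7618 with H3K27ac in 10 of 10 lists (line); dotted lines mark 2 and 4 kb. The bars peak below the line's single mode, with 59 promoters between 1000 and 1500 bp, and form a broad stretch above it, with 13 to 22 promoters per 500 bp from 4000 to 6000 bp.

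At the long end stood the region of Eif5a and Gps2 (chromosome 11, 69912749 to 69923350, holding the TSS of both genes). Eif5a is a translation factor that carries hypusine, and Gps2 a subunit of the NCoR corepressor complex. This region held up to 2 peaks in a list and need not be a single promoter. Its covered length was 8601 and 10445 bp in the 2 lists at 0 h, 9653 and 8619 bp after 2 h, 8389 and 8460 bp after 6 h, 9195 and 9275 bp after 12 h, and 9822 and 9435 bp at 24 h. No list left this region under 8000 bp, and both lists at 6 h lay below the other 8. Ppp1r15b, the constitutive partner of protein phosphatase 1 for eIF2α (chromosome 1, 133128676 to 133137968), averaged 8433 bp with a range of 7949 to 9200 bp. Among the next longest were Idua, a lysosomal enzyme of glycosaminoglycan breakdown, with Slc26a1 (8134 bp), Lyl1 (8005 bp), Zfp36l1 (7971 bp), Cers2, a ceramide synthase (7650 bp), and Bcor, a Polycomb-linked corepressor (7594 bp).

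The Lyl1 region (chromosome 8, 84700600 to 84709038) was covered over 8179 and 8331 bp at 0 h and 7971 and 7978 bp at 24 h, with 7608 to 8115 bp in the 6 lists between. The lowest and highest of its 10 values differed by less than 1000 bp, and both lists at 0 h lay above the 8 later ones.

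At the short end stood Sgk1, a serum-induced kinase (732 bp), Pacsin3, an endocytic adaptor (731 bp), Kank3 (725 bp), Ogdhl (716 bp), Gm14139 (696 bp) and Ifit2 (686 bp). Ifit2 (chromosome 19, 34550370 to 34551248) was covered over 823 and 666 bp at 0 h, 725 and 692 bp after 2 h, 700 and 570 bp after 6 h, 724 and 656 bp after 12 h, and 672 and 631 bp at 24 h. The 0 h lists overlapped those of every later time, and both lists at 24 h lay below both at 2 h. Sgk1 ranged from 607 to 846 bp, and all its times overlapped. Across the members, the highest of the 10 lists exceeded the lowest by a median factor of 1.39, and by more than 2 in 31 promoters, 20 of them short.

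Their H3K4me3 peaks also ranked low by score. The score is the peak caller's and rises with the negative log10 of its p-value, by a scale factor that was not checked here. It was ranked within each list because it is not comparable between libraries. The median rank was percentile 31.2 for the 310 promoters and 70.6 for those with H3K27ac in all 10 lists. Within a length class the order was the same, with 22.3 against 54.2 for short, 44.5 against 76.5 for the middle and 39.6 against 56.7 for long promoters. The classes do not hold length equal, with medians of 1137.5 against 1759 bp, 3122 against 2699 bp and 5696 against 4515 bp. The median H3K4me3 score itself changed with peak length (90.8 under 1 kb, 464 at 1 to 2 kb, 1030 at 4 to 5 kb, 752 at 5 to 6 kb). The part of length was not tested.

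The nearest H3K27ac peak of any list lay a median 9587 bp from the edge of the region, and 158 of the 310 promoters had one within 10 kb. Distances were longer around the short promoters. Their median was 23673 bp, against 7618 bp for the long ones and 6530 bp for the 49 between, and 39 of 133 short against 83 of 128 long promoters had an H3K27ac peak within 10 kb. The nearest was at Rhag, the Rh-associated glycoprotein of the red cell membrane, at 72 bp. It was followed by 1500011B03Rik at 117 bp, the shared region of Clic1 and Msh5 at 129 bp, and Iqce, a ciliary protein of hedgehog signalling, at 193 bp. The most remote were Triqk at 669144 bp, the cadherin Cdh10 at 291144 bp, the homeobox gene Pax9 at 197905 bp and Adam5, a sperm protein gene, at 184589 bp, and all 4 of these were short.

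How often a promoter had no listed H3K27ac followed its H3K4me3 length in a U shape. Among constant promoters, 50 of 129 covered under 1 kb had none (38.8%, 95% Wilson interval 30.8 to 47.4%), and 22 of 3719 covered over 2 to 3 kb (0.592%, 0.391 to 0.894%). The share then rose to 43 of 760 at 4 to 5 kb (5.66%), 35 of 264 at 5 to 6 kb (13.3%), 27 of 109 at 6 to 7 kb (24.8%) and 23 of 54 at 7 kb or more (42.6%, 30.3 to 55.8%). These intervals cover counting error over promoters only. The ends of this curve lie at different ends of the peak lengths that the lists hold.

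**Figure D2:**
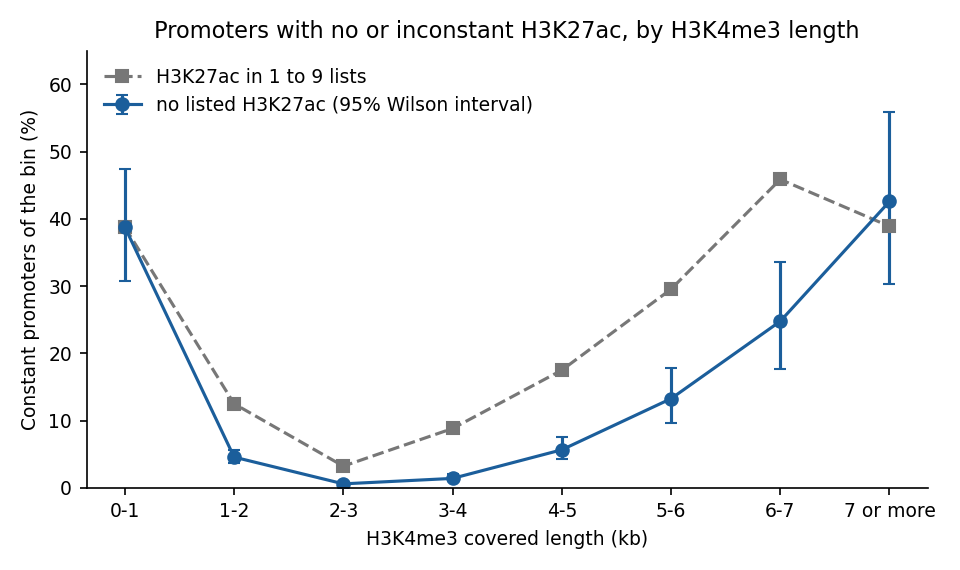
Share of constant promoters (vertical axis, percent of the promoters in the bin) with no listed H3K27ac (circles, with 95% Wilson intervals) or with H3K27ac in 1 to 9 lists (squares), by H3K4me3 covered length in kb. The share without listed H3K27ac was lowest at 2 to 3 kb (0.592%) and reached 38.8% under 1 kb and 42.6% at 7 kb or more.

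No list held a histone peak longer than 9200 bp, and the longest H3K27ac peak was 8973 bp. In both marks the median score rose with peak length up to 2 to 4 kb and then fell toward the lowest score that the lists hold, which was 50. For H3K27ac the median over lists was 71.3 for peaks under 1 kb, 488 at 3 to 4 kb, 227 at 6 to 7 kb and 71.8 at 8 to 9 kb. At constant promoters with H3K27ac in all 10 lists, the longest overlapping H3K27ac peak had a median of 1922 bp where H3K4me3 covered 1 to 2 kb, 4314 bp at 3 to 4 kb, 6741 bp at 5 to 6 kb and 8021 bp at 6 to 7 kb. The 282 long promoters with H3K27ac in 1 to 9 lists also had H3K27ac peaks near the greatest listed length, since in those with 3 to 7 lists it had a median of 8162 bp and a median score of 76.3. In short promoters with 3 to 7 lists it measured 1062 bp, with a median score of 78.1.

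**Figure D3:**
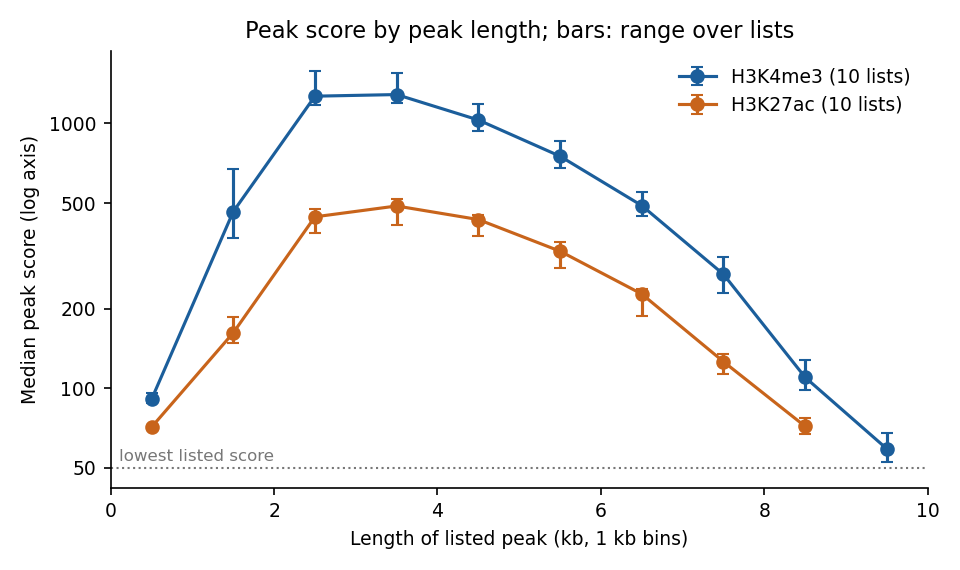
Median peak score (vertical axis, log scale) by length of the listed peak (horizontal axis, 1 kb bins) for H3K4me3 and H3K27ac; points are the median over 10 lists and bars the range over lists. Scores peaked at 3 to 4 kb in both marks and fell to 71.8 for H3K27ac at 8 to 9 kb, close to the lowest listed score of 50 (dotted line).

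For the 128 long promoters, then, no listed peak cannot be read as no H3K27ac, and the label of promoters without any H3K27ac cannot be taken from these lists alone. Around every one of them the stretch free of H3K27ac peaks, the region included, was longer than the longest listed peak. The same held for 132 of the 133 short and 45 of the 49 middle promoters, so it does not set the long ones apart. Whether an H3K27ac stretch longer than the longest listed peak was present and unlisted was not tested. H3K27ac peaks at other promoters of the short class were well under the greatest length, with a median of 1910 bp where all 10 lists had one. Those promoters had longer H3K4me3 than the 133 short ones (median 1759 against 1137.5 bp). Where H3K4me3 covered under 1 kb, the median was 946 bp, over 29 promoters. For the 133 short promoters a weak peak under the score limit and no peak cannot be told apart.

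Erythroid genes among them lay in the long, middle and short classes. So did all 331 coding genes held by these promoters, with 147 in the long, 54 in the middle and 133 in the short class. A gene with regions in several classes was counted in each. Of a list of erythroid genes, 36 lay in constant promoters and 10 of these (27.8%) were among the promoters without listed H3K27ac, against 331 of 9697 of all coding genes in constant promoters (3.41%). Of the 10, 6 were in the long class, among them Lyl1, Fech, which inserts iron into heme, Ermap, the Scianna blood group protein, Rhag and Runx1, a blood stem cell factor. The membrane skeleton gene Epb41, the mitochondrial glycine carrier Slc25a38 and the adult β-globin gene Hbb-bt lay in the middle class, and Ank1, which anchors the membrane skeleton, in the short class. The list was drawn up with earlier results of these data known, and its count is a description.

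Hbb-bt (chromosome 7, 103811914 to 103814482) was covered over 1130 and 2356 bp at 0 h, 2280 and 1702 bp after 2 h, 2253 and 1949 bp after 6 h, 2098 and 1749 bp after 12 h, and 2167 and 2434 bp at 24 h. The 2 lists at 0 h differed more from each other than the means of any 2 times. Hbb-bt has a near-identical neighbour, Hbb-bs, and only uniquely aligned reads were kept, so peaks in this locus are uncertain. Ermap averaged 5037 bp (4019 to 5777 bp) and Rhag 4718 bp (4026 to 5222 bp).

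Lists of developmental, channel and neuronal genes were counted in the same way. Of the developmental transcription factor genes, 10 lay in constant promoters, and 2 of these had no listed H3K27ac, Pax9 with 1880 bp (1574 to 2344 bp) and Lhx2 with 1650 bp (1416 to 1802 bp). Lhx2 measured 1783 and 1752 bp at 0 h and 1618 and 1533 bp at 24 h. Ion channel genes gave 4 of 23, the pacemaker channels Hcn2 (1122 bp) and Hcn3 (1406 bp) and the calcium channel subunit Cacnb3 (1393 bp) in the short class, and Kcnn4, the calcium-activated potassium channel of red cells, in the long class with 4779 bp. Nlgn1, a neuronal adhesion protein, was the only one of 12 synapse genes (1131 bp). With 1 TSS per gene in place of all annotated ones, neither developmental factor nor Nlgn1 met the rule. With lists this small the intervals are wide, 5.67 to 51.0% for the developmental factors and 15.9 to 44.0% for the erythroid genes.

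Of 4 housekeeping lists no gene was found. None of 96 DNA repair genes in constant promoters, none of 73 cytosolic ribosomal protein genes, none of 44 respiratory complex I genes and none of 36 aminoacyl-tRNA synthetase genes was among the 310 promoters. The Wilson upper limits of these 4 shares, 3.85 to 9.64%, lie above the 3.41% of all coding genes, so that no lower share is shown. The mitochondrial ribosomal proteins gave 1 of 77 (1.30%, Mrps18b), the proteasome 1 of 45 (2.22%, Psmc6), the cilium genes 2 of 62 (3.23%, B9d2 among them) and the germline genes 1 of 15 (6.67%, Msh5), and the Wilson intervals of all 4 hold 3.41%. C2H2 zinc-finger genes gave 6 of 334 (1.796%), the longest being Zfp217 with 7433 bp, and solute carriers gave 7 of 149 (4.70%). The Hox genes (0 of 6), developmental signalling genes (0 of 13), GPI anchor genes (0 of 26), peroxisome genes (0 of 16) and lymphoid and myeloid genes (0 of 3) gave none, and no protocadherin gene lay in a constant promoter.

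To ask whether H3K4me3 at these promoters changed with GATA1 activation, the covered length was compared between 24 h and 0 h in limma on log2(length + 200 bp), over the 14862 regions listed at least 2 times. Of the 310 promoters 5 (1.61%) passed an adjusted p of 0.05, 4 longer and 1 shorter at 24 h, against 235 of all regions (1.58%). Over all 5 time points, limma's moderated F test passed 4 of them (1.29%), against 1.25% of all regions. The median difference was -0.02 (log2) in the 310 and -0.04 in all regions. These shares are close to those of all regions, so nothing is read from them about the set, and the 5 are given singly.

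Plin2, which coats lipid droplets (chromosome 4, 86663672 to 86671042), was covered over 3447 and 4084 bp at 0 h, 3346 and 3386 bp after 2 h, 4088 and 3919 bp after 6 h, 6936 and 6780 bp after 12 h, and 7329 and 7034 bp at 24 h. The 4 lists at 12 and 24 h lay above all 6 earlier ones. Its length rose by 0.90 (log2) from 0 to 24 h (SE 0.077, limma, adjusted p = 0.00248). Mlec, a lectin of the endoplasmic reticulum (chromosome 5, 115154062 to 115162079), measured 7680 and 7929 bp at 0 h and 5349 to 5733 bp in the 8 later lists. Both untreated lists lay above the 8 later ones, and its length fell by 0.51 (log2, SE 0.054, limma, adjusted p = 0.00505). Plin2 and Mlec passed in all 10 fits that left out 1 list.

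Gga2, an adaptor for sorting at the Golgi, measured 4078 and 5210 bp at 0 h, 3827 to 4352 bp from 2 to 12 h, and 7052 and 7209 bp at 24 h. Only the lists at 24 h stood apart (rise of 0.61, SE 0.099, limma, adjusted p = 0.0321), and the call was lost without any 1 list of 2, 6, 12 or 24 h (adjusted p up to 0.127). Prkab1, a regulatory subunit of the energy sensor AMPK, measured 6485 and 6442 bp at 0 h, 6427 to 6729 bp from 2 to 12 h, and 8384 and 8277 bp at 24 h (rise of 0.36, SE 0.062, limma, adjusted p = 0.0402). Nadk2, the mitochondrial NAD kinase, went from 5027 and 5624 bp at 0 h to 7376 and 6914 bp after 2 h, 7309 and 7157 bp after 6 h, back to 5252 and 5133 bp after 12 h, and to 7212 and 7282 bp at 24 h (rise of 0.43 from 0 to 24 h, SE 0.072, limma, adjusted p = 0.0355). The calls of Prkab1 and Nadk2 were lost without any 1 list of 0, 12 or 24 h (adjusted p up to 0.184 and 0.192) and with the replicate number as a block (limma, adjusted p = 0.0907 and 0.079). Over the alternatives that gave a value, limma's adjusted p ran from 0.0316 to 0.184 for Prkab1, from 0.0296 to 0.713 for Nadk2 and from 0.00422 to 0.796 for Gga2.

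Lyl1, Hbb-bt, Lhx2 and Ifit2 had adjusted p-values of 0.866, 0.649, 0.702 and 0.85 in the same limma fit.

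**Figure D4:**
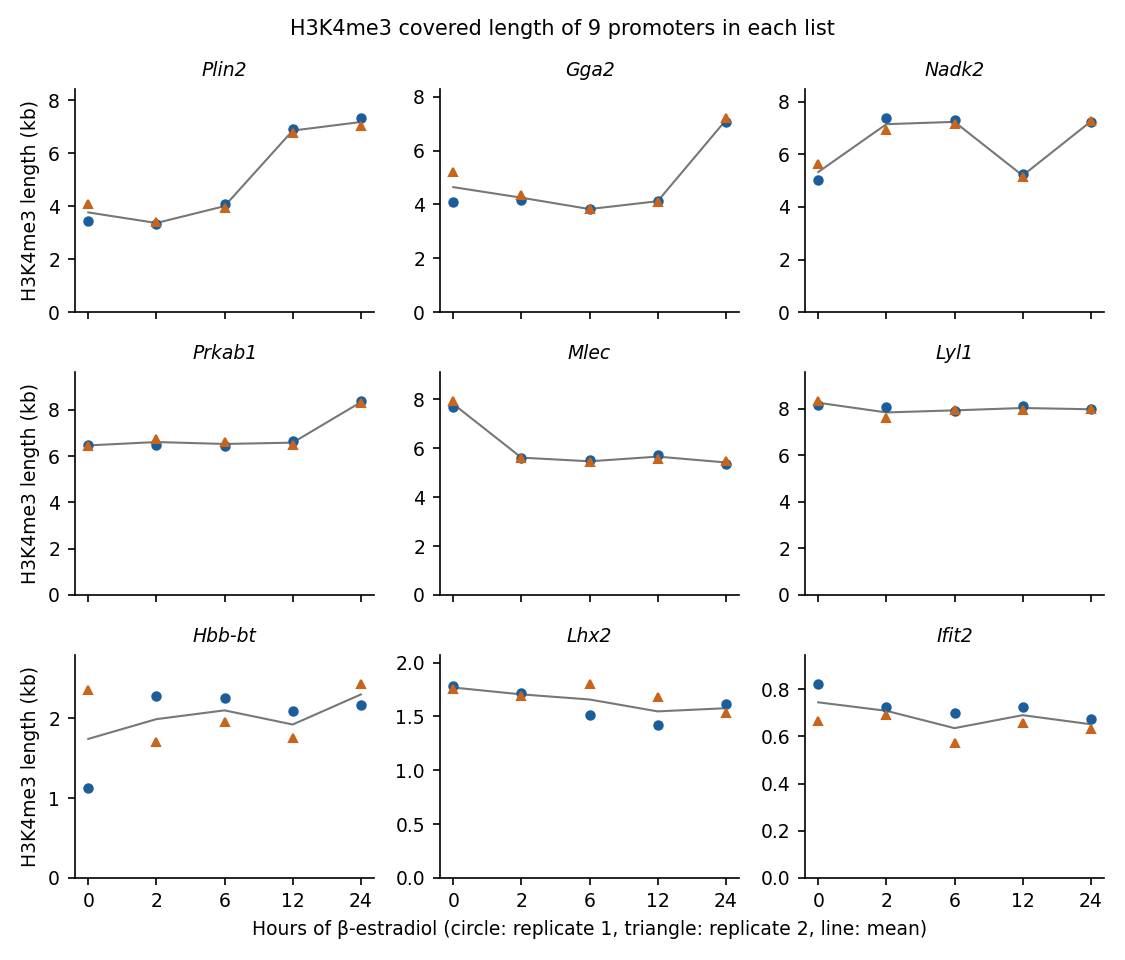
H3K4me3 covered length (vertical axis, kb, separate scale from 0 in each panel) at 0, 2, 6, 12 and 24 h of β-estradiol (horizontal axis, evenly spaced) for 9 of the promoters, with circles for replicate 1, triangles for replicate 2 and a line through the means. Plin2 and Gga2 were above 7 kb in both lists at 24 h and lower in both at 0 h. Lyl1, Lhx2 and Ifit2 did not pass the limma threshold for 24 h against 0 h.

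The shared region of Clic1, a chloride channel protein, and Msh5, a meiotic recombination factor (chromosome 17, 35044419 to 35054852), varied most, by a factor of 4.61. It was covered over 7287 and 8143 bp at 0 h and over 9555 and 2071 bp at 24 h, and the other 6 lists lay between 6199 and 9039 bp. A single list, replicate 2 at 24 h, was far below the rest.

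CTCF, the insulator protein, was not used to choose the promoters. A CTCF peak overlapped 102 of the 310 at 0 h (32.9%, Wilson interval 27.9 to 38.3%) and 125 at 24 h (40.3%, 35.01 to 45.9%), against 32.8% and 42.2% of the promoters with H3K27ac in all 10 lists. The classes differed. Of the short promoters 15.8% held CTCF at 0 h (10.6 to 22.9%), against 30.4% (28.2 to 32.8%) of short promoters with H3K27ac in all 10 lists, and 19.5% against 37.1% at 24 h. Of the long ones 50.0% held CTCF at 0 h (41.5 to 58.5%), against 43.1% (39.7 to 46.6%), and 60.2% against 55.2% at 24 h. The intervals did not overlap for the short class and did for the long class. A wider region can meet a CTCF peak more easily, and within the short class the median covered length was 1137.5 against 1759 bp and within the long class 5696 against 4515 bp; the part of width was not tested.

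**Figure D5:**
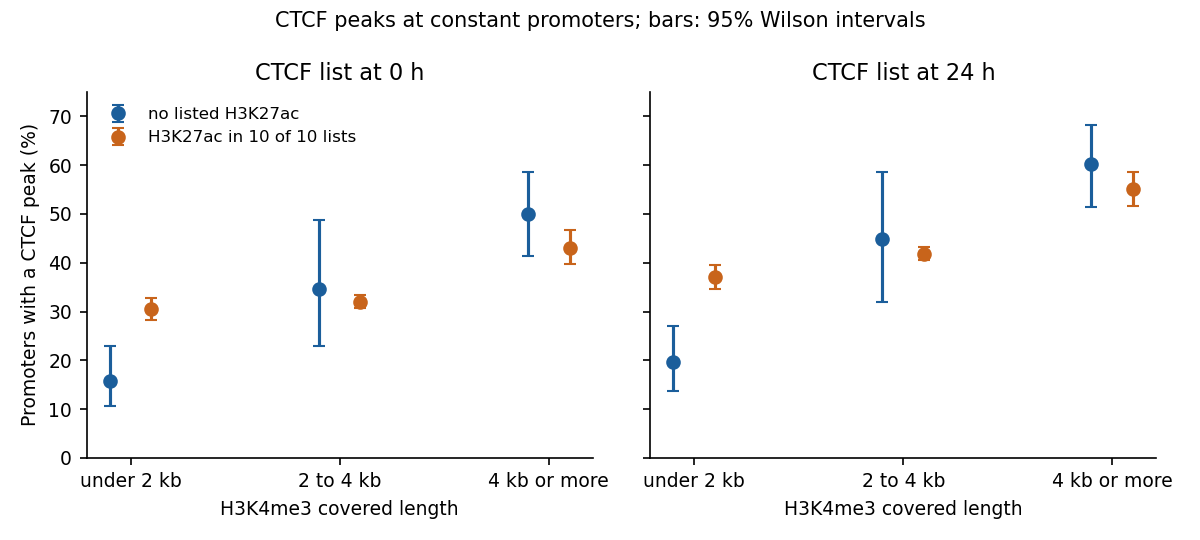
Share of promoters with a CTCF peak (vertical axis, percent, with 95% Wilson intervals) at 0 h (left) and 24 h (right) by H3K4me3 covered length, for promoters with no listed H3K27ac and with H3K27ac in 10 of 10 lists. Under 2 kb the promoters without listed H3K27ac lay lower, at 15.8% against 30.4% at 0 h, and at 4 kb or more the intervals overlapped.

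CTCF was present in both lists at 95 of the 310 promoters, at 0 h alone in 7 and at 24 h alone in 30. The 24 h list is longer over the whole genome, there is 1 list per time, and the difference between times has no replicate check. The highest CTCF scores at 0 h among promoters with CTCF in both lists were at Sh3gl1, an endophilin (530 at 0 h and 915 at 24 h), the shared promoter of the tumour suppressor Trp53 and Wrap53 (526 and 773), Cers2 (476 and 733) and Psmc6 (475 and 639). All 4 scored higher in the 24 h list, but scores are not comparable between libraries.

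The promoters were also described by the 300 bases from 250 before to 50 after a representative TSS. The median observed to expected CpG ratio was 0.708 in the 310, against 0.801 in promoters with H3K27ac in all 10 lists, and 32.9% against 19.97% had a ratio under 0.6. This followed the length classes, with 0.714 against 0.863 for long, 0.656 against 0.826 for middle and 0.702 against 0.676 for short promoters. Thus long and middle promoters without listed H3K27ac were poorer in CpG than those of the same class with it, and short ones were not. The classes do not hold length equal, and the part of length was not tested. The lowest ratios were at Sapcd1 and Hbb-bt, which had no CpG in the window, and at Aldh1a1, a retinaldehyde dehydrogenase (0.0588). The highest were at the divergent genes Bora and Mzt1 (1.23), Mfsd12 (1.22) and Cdk17 (1.19).

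Start sites on both strands were less frequent, in 20 of 310 (6.45%, Wilson interval 4.22 to 9.75%) against 13.5% of promoters with H3K27ac in all 10 lists. None of the 133 short promoters and 17 of the 128 long ones (13.3%) had them, against 3.39% and 26.9% of those with H3K27ac in all 10 lists. The region of Prdx2, a peroxide-reducing enzyme abundant in red cells, held the TSS of 3 coding genes, with Rnaseh2a and Gm49661, and was the only one with more than 2. Members lay on 20 chromosomes, with 6 on X.

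Short sequence words were counted in the same 300 bases on both strands, and a match is a description and not a bound site. CCGGAAG, the core of many ETS factor sites, was present in 11.6% of the 310 (8.51 to 15.7%) against 20.7% of all 8777 constant promoters, and in 8 of the 133 short ones against 261 of 1535 short promoters with H3K27ac in all 10 lists. ATGGCG, which resembles the YY1 word, was present in 9.03% against 17.1%, TGACGTCA, the cAMP response element, in 0.968% against 3.76%, and the NRF1 word in 0.968% against 2.37%. CCAAT was present in 39.7% against 39.8%, GGGCGG in 67.7% against 67.9%, CACGTG in 10.6% against 10.8%, GGCGGGAA in 4.19% against 4.73% and TATAAA in 4.19% against 6.20%. The GATA factor word (AGATAA or any variant with T in first or G in last place) was present in 19.7% against 17.9%, and in none of the 5 sequences printed above. By class, 16.5% of the short, 38.8% of the middle and 15.6% of the long promoters held it. CACGTG was present in 6.77% of the short, 4.08% of the middle and 17.2% of the long promoters. These differences between classes were not tested.

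The limits of the rule cut through similar promoters. Of the promoters left out because 1 list alone held an overlapping H3K27ac peak there were 98, 32 short, 26 middle and 40 long. The fewest shared bases were at Stoml1, where an H3K27ac peak of score 52.0 in replicate 1 at 6 h reached 46 bp into the region, followed by Iqsec1 (456 bp, score 54.5), Gsta4 (463 bp, score 59.4) and Eef1a1 (503 bp, score 52.4). In the 40 long ones the H3K27ac peak had a median length of 7617 bp, and in the 32 short ones of 733 bp. A further 49 promoters had no listed H3K27ac but lacked H3K4me3 in 1 of the 10 lists. Among the longest of these were Eno3 with Pfn1, Rnf167 and Slc25a11 (9553 bp on average), the Notch target Hes1 (7803 bp) and Gfi1b, a repressor needed for erythroid maturation (7235 bp). Each of these 3 was absent from a single list and covered over 7 kb in the mean of the 10.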

How the data were processed

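H3K4me3, H3K27ac and CTCF ChIP-seq peak lists of G1E-ER4 cells were used as the authors deposited them: chromosome, start, end and the peak score of MACS, 1 list per library, in mm10. Per the study's methods reads were aligned with Bowtie2, unique reads were kept and MACS was run without its shifting model; its version, control and threshold, and the CTCF settings, are not given in the sources used here. The labels' protocol names a human build, but the coordinates fit the mouse mm10 chromosomes. The deposited score was ranked within lists only. The depth is unknown, so intervals cover the counting of promoters alone.

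Lists were merged with pandas 2.3.3 and compared with GENCODE M21 TSS. Covered lengths were tested with limma 3.58.1 in R 4.3.3 (log2 of length + 200 bp, all 10 H3K4me3 lists, Benjamini-Hochberg adjusted p under 0.05), after a test on simulated data. Intervals are 95% Wilson intervals. Sequences came from the GRCm38 genome; 20 gene lists were counted.

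The promoters and the lists were chosen with earlier results of these data known, and the limits of 2 and 4 kb were set after the lengths were seen. Genes were named by a rule: the 8 longest and 6 shortest regions, those past the limma threshold, the longest of each gene list, the 4 highest CTCF scores, the 4 nearest and 4 farthest from H3K27ac, the 3 highest and 3 lowest CpG ratios, regions with 3 or more genes, and 4 just outside each limit of the rule; Hcn2 and others came from the gene lists, and Lhx2, Ogdhl and Ifit2 served for the sequences. A few genes the rule names are not reported here. Alternatives are given in the closing section.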

Additional observations from a re-analysis of the deposited data

How the results depend on the processing

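Of 120 alternative settings, 97 left the value within 1.5 times (counts) or within its error (other values) and 23 moved it. Whether a direction turned was not scored. The number of promoters was 312 to 328 when any 1 of the 20 histone lists was left out. Leaving out a list loosens the rule, so a count of at least 310 was nearly fixed in advance. The number was 220 with no H3K27ac within 5 kb. It was 1206 when only H3K27ac peaks that reached the median score of all 10 lists counted. When only such H3K4me3 peaks counted it was 23. The 1206 held 636 short and 288 long promoters, and leaving out those with H3K27ac within 5 kb left 82 long ones. These classes were added after the data were seen. The promoters past the limma threshold were 2 to 6 when 1 list was left out, 1 with peaks at or above the median score and 9 from the 4 lists at 0 and 24 h. With a replicate block as an added term 4 passed (Plin2, Mlec and Gga2 again, Sapcd1 in addition, and Prkab1 and Nadk2 no longer); over all regions the counts were 146 with it and 235 without. Same-numbered libraries did not deviate together in covered length (r -0.076 to 0.032 over 10 pairs). These correlations cannot tell whether such libraries shared a culture or batch. The 734 regions called from 4 lists and the 75 to 292 with 1 list left out show how far the count over all regions depends on the spread assumed.

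CTCF shares were 16.4% at 0 h and 24.5% at 24 h with CTCF peaks at or above the median score, and 39.4% and 46.5% within 1 kb. The median covered length was 3002.5 bp for the promoters without listed H3K27ac and 2584 bp for those with it in all 10 lists. When only peaks at or above the median score counted, it was 0 and 2387 bp, so that their order turned. With 1 TSS per gene it was 3464 bp for the former. Leaving out 1 list gave 2989 to 3014 bp for the former and 2572 to 2596 bp for the latter. The CpG ratio over the whole region was 0.49 and 0.547, and 0.761 for the latter in 1 kb. The distance to H3K27ac was 25355 bp with peaks at or above the median score and 9587 to 9957 bp with 1 list left out. Under 1 TSS per gene neither developmental factor nor the synapse gene stayed a member. Peak lists without read counts limit all of these.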

Other observations

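H3K4me3 itself was listed less evenly at the ends of the length scale. Among regions with a coding TSS and a peak in at least 5 H3K4me3 lists, 129 of 265 covered under 1 kb in the lists that held them had a peak in all 10 (48.7%, Wilson interval 42.7 to 54.7%), 3719 of 3736 at 2 to 3 kb (99.5%) and 54 of 81 at 7 kb or more (66.7%, 55.9 to 76.0%).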
